A study of Mus musculus with 46 samples.

Results

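The genes described here are 10 markers of liver endothelium, and all 10 were found among the 19938 genes with a single symbol on the array. Each was matched by its exact gene symbol and is represented by 1 probe set. They comprise the angiopoietin receptor genes Tek and Tie1, the VEGF receptor genes Kdr and Flt4, the junction and surface genes Cdh5, Pecam1 and Emcn, the co-receptor gene Eng, and the hyaluronan receptor genes Stab2 and Lyve1. RNA came from the liver of 46 SKH:QS mice, a hairless laboratory stock, with 1 array per mouse, in 2 separate experiments on pregnant mice (about day 17 of gestation) and on virgin mice. Each experiment had 4 arms: sunscreen base without particles (formulation), sunscreen with zinc oxide microparticles (micro ZnO), sunscreen with zinc oxide nanoparticles (nano ZnO), and untreated mice. The zinc of both particle types was the stable isotope 68Zn. Pregnant groups held 6 formulation, 5 micro ZnO, 6 nano ZnO and 5 untreated mice, and each virgin group held 6. Sunscreen was put on the back 6 times in 4 days, and livers were collected on day 5. The protocol gives collars against licking for the mice as a whole and does not say whether untreated animals wore them. Ages were not given.

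Liver sinusoids are lined by a specialised endothelium with open pores and no continuous basement membrane, and these cells clear hyaluronan, collagen fragments and immune complexes from blood. Their survival and identity depend on VEGF signalling through the receptor encoded by Kdr and on BMP ligands, which act through receptor complexes that include endoglin. Angiopoietins act through the TEK receptor to keep vessels quiescent, and TIE1 modulates that signal. In liver, Stab2 and Lyve1 mark sinusoidal cells, Lyve1 and Flt4 are also expressed by lymphatic endothelium, and Emcn marks venous and capillary endothelium.

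Values are RMA log2 intensities, so a difference of 1 is a 2-fold one. Array medians lay between 3.98 and 4.12 in pregnant mice and between 4.66 and 4.90 in virgin mice, so levels are compared within an experiment alone. The probe set of Emcn was dim, at the 32.0 percentile of all probe sets of an array in untreated pregnant mice and the 32.9 percentile in untreated virgin mice (medians over arrays). Those of the other 9 genes lay between the 50.1 and 87.0 percentiles in untreated pregnant mice and between the 54.5 and 88.2 percentiles in untreated virgin mice. The array of pregnant micro ZnO replicate 3 and that of replicate 4 stood apart, at -47.1 and -31.2 on the first principal component, against -12.5 to 19.5 for the other 20 pregnant arrays. Changes of single genes in that arm are therefore given with and without them. Correlations across arrays and within-array differences of gene pairs were not recomputed with both of these arrays left out. The width of the arrays also differed between virgin groups. The interquartile range was 2.83 ± 0.05 with formulation, 2.91 ± 0.03 with micro ZnO and 2.90 ± 0.06 with nano ZnO, against 2.97 ± 0.07 in untreated mice (SD, n = 6 each). It ran from 2.76 to 2.89 with formulation and from 2.90 to 3.10 in untreated mice, without overlap. A fit with width as a covariate therefore cannot tell width from formulation. The particle arms, which reached 2.94 with micro ZnO and 2.99 with nano ZnO, overlapped with untreated mice in part.

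Promoters of 7 members had a RefSeq entry. The 3 shown here belong to the members with an entry whose levels differed most between the arms of virgin mice, by the moderated F of the fit, and each runs from 250 bases before to 50 after the annotated start of transcription (build GRCm38.p6). Capitals mark every match on either strand to the ETS motif AGGAAG, which reads CTTCCT on the other strand, or to the GATA motif AGATAA.
Tek promoter, chr4:94739039-94739338, plus strand: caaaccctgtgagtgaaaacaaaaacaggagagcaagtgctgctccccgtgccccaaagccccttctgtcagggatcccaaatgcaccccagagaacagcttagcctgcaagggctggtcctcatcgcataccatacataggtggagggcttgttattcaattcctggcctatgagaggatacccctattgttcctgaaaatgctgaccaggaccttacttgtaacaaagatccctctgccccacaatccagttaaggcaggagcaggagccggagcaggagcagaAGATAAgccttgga
Emcn promoter, chr3:137340828-137341127, plus strand: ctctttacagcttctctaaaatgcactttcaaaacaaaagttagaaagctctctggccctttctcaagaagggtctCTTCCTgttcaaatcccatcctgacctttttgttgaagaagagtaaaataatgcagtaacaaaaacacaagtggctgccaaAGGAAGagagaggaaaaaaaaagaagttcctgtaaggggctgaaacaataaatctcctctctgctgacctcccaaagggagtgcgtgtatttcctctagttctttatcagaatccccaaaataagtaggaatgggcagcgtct
Eng promoter, chr2:32646345-32646644, plus strand: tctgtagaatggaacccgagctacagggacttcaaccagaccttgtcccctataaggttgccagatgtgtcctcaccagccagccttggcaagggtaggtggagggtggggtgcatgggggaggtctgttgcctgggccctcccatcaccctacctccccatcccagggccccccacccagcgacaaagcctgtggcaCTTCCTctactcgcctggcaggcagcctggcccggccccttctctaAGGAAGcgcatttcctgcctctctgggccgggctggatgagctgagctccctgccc

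Across the 7 promoters, AGGAAG occurred in 4 (Tie1, Emcn, Eng and Stab2), against 35.4% of 32851 mouse promoters of the same length. The related ETS motif CGGAAG occurred in 1 (Tie1), against 16.9% of all promoters. AGATAA occurred in 1 (Tek), against 11.2%, and the FOX motif GTAAACA in 0, against 3.65%. AGGAAG and CGGAAG differ in their first letter and cannot match at the same place. A match describes the sequence alone.

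The first question was which endothelial markers changed after sunscreen in virgin mice. Tek, Cdh5, Emcn, Kdr and Eng were lower than in untreated mice in all 3 sunscreen arms, Pecam1 was lower in the micro ZnO arm, and no marker was higher. A gene is called here at an adjusted p under 0.05 in limma, with Benjamini-Hochberg adjustment over 23410 probe sets. With formulation 5 of the 10 were called lower and 0 higher, beside 15.0% of all probe sets called lower and 11.5% called higher. With micro ZnO 6 were called lower and 0 higher, beside 2.80% and 1.63% of all probe sets. With nano ZnO the count was 5 lower and 0 higher, beside 7.18% and 4.77%. The median log2 change of the 10 genes was -0.25 with formulation, -0.34 with micro ZnO and -0.34 with nano ZnO, against 0.03, 0.01 and 0.02 over all probe sets tested. The 3 comparisons share the same untreated mice. In liver tissue, fewer endothelial cells and less RNA per endothelial cell cannot be told apart. When the interquartile range of each array was added to the fit, 0 members were called lower with formulation, 2 with micro ZnO (Tek and Cdh5) and 2 with nano ZnO (Tek and Emcn). The share of all probe sets called in that fit is not given here. Array width did not overlap between formulation and untreated mice, so that fit cannot tell width from formulation.

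**Figure D1:**
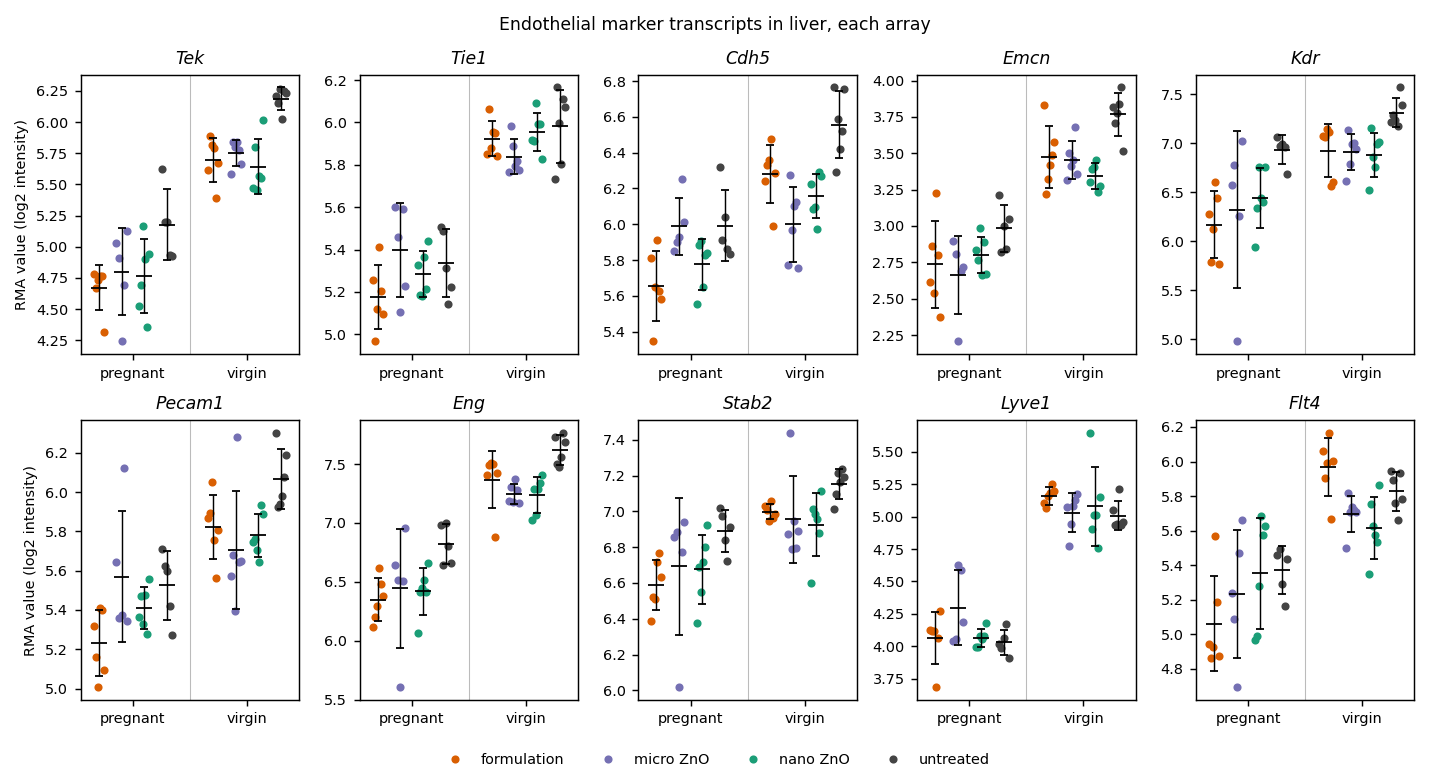
RMA log2 intensity of each of the 10 genes in every array, by experiment (pregnant on the left of each panel, virgin on the right) and arm (colour). Horizontal lines are group means and vertical bars are SD. In virgin mice all 18 sunscreen arrays lie below all 6 untreated arrays for Tek and Kdr, while Tie1, Lyve1 and Flt4 overlap.

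The mean log2 value of the 10 genes lay between 5.73 and 6.04 in the 18 virgin sunscreen arrays and between 6.08 and 6.24 in the 6 untreated ones. The ranges did not overlap.

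Tek, the angiopoietin receptor also called TIE2, was the member with the smallest adjusted p in the formulation and nano ZnO arms. Its log2 values in virgin mice ran from 5.39 through a median of 5.73 to 5.89 with formulation, from 5.58 through 5.79 to 5.84 with micro ZnO, and from 5.46 through 5.56 to 6.02 with nano ZnO, against 6.02 through 6.22 to 6.26 in untreated mice. Every sunscreen array lay below every untreated array, by a narrow margin for 1 nano ZnO array. Here and elsewhere the share of all probe sets without overlap between groups is not given, so such separation only describes the arrays. Tek fell by 0.49 ± 0.09 with formulation (± SE, adjusted p = 0.000547), to 71.1% of the untreated level. It fell by 0.44 ± 0.09 with micro ZnO (adjusted p = 0.00605) and by 0.55 ± 0.09 with nano ZnO (adjusted p = 0.000559), to 73.8% and 68.5%. These calls held with each array left out in turn. The formulation call was lost with array width in the fit (-0.32, adjusted p = 0.226), where width and formulation cannot be told apart.

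Tie1, whose product pairs with TEK on the cell surface, did not follow it. Its median log2 value was 5.91 with formulation, 5.81 with micro ZnO and 5.95 with nano ZnO, against 6.04 in untreated virgin mice, and the arrays of all groups overlapped. The log2 change was -0.06 ± 0.07 with formulation, -0.14 ± 0.07 with micro ZnO and -0.03 ± 0.07 with nano ZnO, with 95% intervals of -0.21 to 0.09, -0.29 to 0.00 and -0.17 to 0.12. None was called (adjusted p = 0.575, 0.249 and 0.849). The difference between the pair was tested directly, as Tek minus Tie1 within each array, in one family of 24 exact permutation tests over 4 gene pairs. These tests took no account of array width, which was on average lower in each virgin sunscreen arm than in untreated mice. The part of width in such differences was not tested. Its difference from untreated virgin mice was -0.43 with formulation, -0.29 with micro ZnO and -0.52 with nano ZnO (two-sided exact permutation tests, adjusted p = 0.0173, 0.026 and 0.0297). For formulation all 6 arrays lay below all untreated arrays, and for micro ZnO and nano ZnO 5 of 6 did.

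Among 6 other genes of the angiopoietin-Tie pathway, ligands and regulators, 1 was called in virgin mice. With formulation 15.0% of all probe sets were called lower and 11.5% higher. Svep1, an extracellular matrix protein gene, was higher with formulation (0.33, adjusted p = 0.0407), with changes of 0.02 and 0.07 for micro ZnO and nano ZnO that were not called. The ligand genes Angpt1, Angpt2 and Angpt4 and the phosphatase gene Ptprb were called in 0 of the 3 arms.

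Kdr encodes VEGF receptor 2, the main signalling receptor for VEGF-A. Its log2 values in virgin mice ran from 6.56 through 7.07 to 7.15 with formulation, from 6.61 through 6.97 to 7.13 with micro ZnO and from 6.52 through 6.93 to 7.16 with nano ZnO, against 7.17 through 7.26 to 7.57 in untreated mice. No sunscreen array reached the lowest untreated array. Kdr fell by 0.39 ± 0.11 with formulation, 0.40 ± 0.11 with micro ZnO and 0.43 ± 0.11 with nano ZnO (adjusted p = 0.0151, 0.0427 and 0.0159), to between 74.3% and 76.5% of untreated. The micro ZnO call is close to the threshold and was lost in 11 of 12 fits with 1 array left out, with changes from -0.44 to -0.34. The formulation call was lost without formulation replicate 5, at -0.31 and an adjusted p of 0.0514.

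Flt4, the gene of VEGF receptor 3, which binds VEGF-C and VEGF-D, differed from Kdr in its pattern. Its median log2 value was 6.00 with formulation, 5.71 with micro ZnO and 5.60 with nano ZnO, against 5.84 in untreated virgin mice. The change from untreated was 0.14 ± 0.09 with formulation, -0.13 ± 0.09 with micro ZnO and -0.21 ± 0.09 with nano ZnO, none of them called (adjusted p = 0.225, 0.392 and 0.0999). Between nano ZnO and formulation, however, Flt4 was the 1 marker called, at -0.35 ± 0.09 (adjusted p = 0.0227), beside 0.722% of all probe sets called lower. Nano ZnO arrays ran from 5.35 to 5.87 and formulation arrays from 5.67 to 6.16, and 4 of 6 nano ZnO arrays lay below all formulation arrays. The call was lost without formulation replicate 1 (-0.33, adjusted p = 0.0508) and without nano ZnO replicate 1 (-0.30, adjusted p = 0.068). Kdr minus Flt4 within an array differed from untreated virgin mice by -0.52 with formulation, -0.27 with micro ZnO and -0.22 with nano ZnO (exact permutation, adjusted p = 0.0173, 0.0297 and 0.0468). Kdr was the brighter of the pair, and array width was not taken into account.

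Of 8 other VEGF pathway genes, Vegfa, the ligand of KDR, was higher in all 3 virgin sunscreen arms, by 0.36, 0.25 and 0.29 with formulation, micro ZnO and nano ZnO (adjusted p = 0.000415, 0.0253 and 0.0047). Vegfb was higher with formulation (0.26, adjusted p = 0.0108), and the co-receptor gene Nrp2 was lower with formulation (-0.24, adjusted p = 0.0262). The median of the 8 was -0.09 with formulation and -0.08 with nano ZnO, so the list did not move one way. Flt1, the gene of VEGF receptor 1, and Nrp1 were called in 0 of the 3 arms. Of all probe sets, 15.0% were called lower and 11.5% higher with formulation. These shares were 2.80% and 1.63% with micro ZnO, and 7.18% and 4.77% with nano ZnO.

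Cdh5 encodes VE-cadherin, the adhesion molecule of endothelial junctions. Its log2 values in virgin mice ran from 5.99 through 6.31 to 6.47 with formulation, from 5.75 through 6.04 to 6.27 with micro ZnO and from 5.98 through 6.16 to 6.29 with nano ZnO, against 6.29 through 6.55 to 6.77 in untreated mice. Micro ZnO and nano ZnO arrays lay below all untreated arrays, nano ZnO by a narrow margin at its highest, and formulation arrays overlapped them. Cdh5 fell by 0.28 ± 0.10 with formulation (adjusted p = 0.036), by 0.56 ± 0.10 with micro ZnO (adjusted p = 0.00125) and by 0.40 ± 0.10 with nano ZnO (adjusted p = 0.00896). The micro ZnO value, 67.9% of untreated, was the lowest share among the members' calls in virgin mice. The micro ZnO call held in all 20 alternatives run. The formulation call was lost in 10 of 20, among them 6 of 12 fits with 1 array left out. The direction of the change turned with array width in the fit (0.03, adjusted p = 0.951), where width and formulation cannot be told apart.

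Pecam1, the gene of the platelet and endothelial adhesion molecule CD31, fell by 0.36 ± 0.11 with micro ZnO (adjusted p = 0.0492). Micro ZnO arrays ran from 5.40 through 5.65 to 6.28, with replicate 4 at the top, against 5.92 through 6.03 to 6.30 in untreated mice. 5 of 6 micro ZnO arrays lay below all untreated arrays and replicate 4 lay among them. The call was lost in 10 of 12 fits with 1 array left out, over changes from -0.48 to -0.30. With formulation and nano ZnO the change was -0.24 ± 0.11 and -0.29 ± 0.11, which were not called (adjusted p = 0.0873 and 0.0754). Cdh5 minus Pecam1 within an array did not differ from untreated mice at an adjusted p under 0.05 in any of 6 exact permutation tests (differences from -0.20 to -0.03 over both experiments).

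Emcn encodes endomucin, a sialomucin of the endothelial surface. In virgin mice its log2 values ran from 3.22 through 3.45 to 3.83 with formulation, from 3.31 through 3.43 to 3.68 with micro ZnO and from 3.23 through 3.35 to 3.46 with nano ZnO, against 3.51 through 3.80 to 3.95 in untreated mice. Only with nano ZnO did the groups not overlap. Emcn fell by 0.29 ± 0.09 with formulation, 0.31 ± 0.09 with micro ZnO and 0.43 ± 0.09 with nano ZnO (adjusted p = 0.0166, 0.0393 and 0.00315). As a dim probe set, it is left out by a filter at the 40th percentile of mean signal. The micro ZnO call was lost in 11 of 19 alternatives, among them 8 of 12 fits with 1 array left out (changes from -0.36 to -0.28), and the formulation call without formulation replicate 2 (-0.24, adjusted p = 0.0519).

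Eng encodes endoglin, a co-receptor for BMP ligands on endothelium. Its log2 values ran from 6.88 through 7.46 to 7.51 with formulation, from 7.17 through 7.23 to 7.37 with micro ZnO and from 7.03 through 7.29 to 7.40 with nano ZnO, against 7.47 through 7.62 to 7.76 in untreated virgin mice. Both particle arms lay below every untreated array, and formulation overlapped with untreated mice. Eng fell by 0.37 ± 0.09 with micro ZnO and 0.38 ± 0.09 with nano ZnO (adjusted p = 0.0209 and 0.00881). With formulation it fell by 0.25 ± 0.09 (adjusted p = 0.0451), a call lost in 13 of 20 alternatives and in 7 of 12 fits with 1 array left out. The smallest fall among those 12 was 0.15, without formulation replicate 5, the lowest array (adjusted p = 0.144). The micro ZnO call was lost without untreated replicate 1 (-0.35, adjusted p = 0.0509) and without untreated replicate 5 (-0.34, adjusted p = 0.0541). In the endoglin and BMP pathway list, Acvrl1, the type I receptor gene that partners with endoglin, was higher with formulation (0.28, adjusted p = 0.0129). The ligand gene Bmp10 and the BMP9 gene Gdf2 changed by -0.32 and -0.28 with formulation (adjusted p = 0.0361 and 0.0414). Hamp, a BMP target in hepatocytes that encodes the iron hormone hepcidin, was higher with micro ZnO (0.74, adjusted p = 0.0477). Of the 11 genes, 3 were called with formulation, 1 with micro ZnO and 0 with nano ZnO. Of all probe sets, 15.0% were called lower and 11.5% higher with formulation, so the count with formulation is near the share of all probe sets. With micro ZnO these shares were 2.80% and 1.63%, and with nano ZnO 7.18% and 4.77%.

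Stab2, the sinusoidal scavenger receptor for hyaluronan, was not called in any virgin arm. Its median log2 value was 7.00 with formulation, 6.88 with micro ZnO and 6.97 with nano ZnO, against 7.18 in untreated mice. The change was -0.15 ± 0.09, -0.20 ± 0.09 and -0.23 ± 0.09 in that order of arms (adjusted p = 0.202, 0.206 and 0.0951). Without micro ZnO replicate 2, whose value of 7.44 stood above all untreated arrays, Stab2 was called with micro ZnO at -0.29. Lyve1, the other hyaluronan receptor gene, had medians of 5.17 with formulation, 5.08 with micro ZnO and 5.01 with nano ZnO, against 4.95 in untreated virgin mice. Its changes of 0.15 ± 0.10, 0.02 ± 0.10 and 0.07 ± 0.10 were not called, with 95% intervals from -0.19 at the lowest to 0.36 at the highest. Stab2 minus Lyve1 differed by -0.31 between formulation and untreated virgin mice, with no overlap (exact permutation, adjusted p = 0.0173), and was not called in the other arms. Stab2 was the brighter of the pair, and array width was not taken into account here either.

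**Figure D2:**
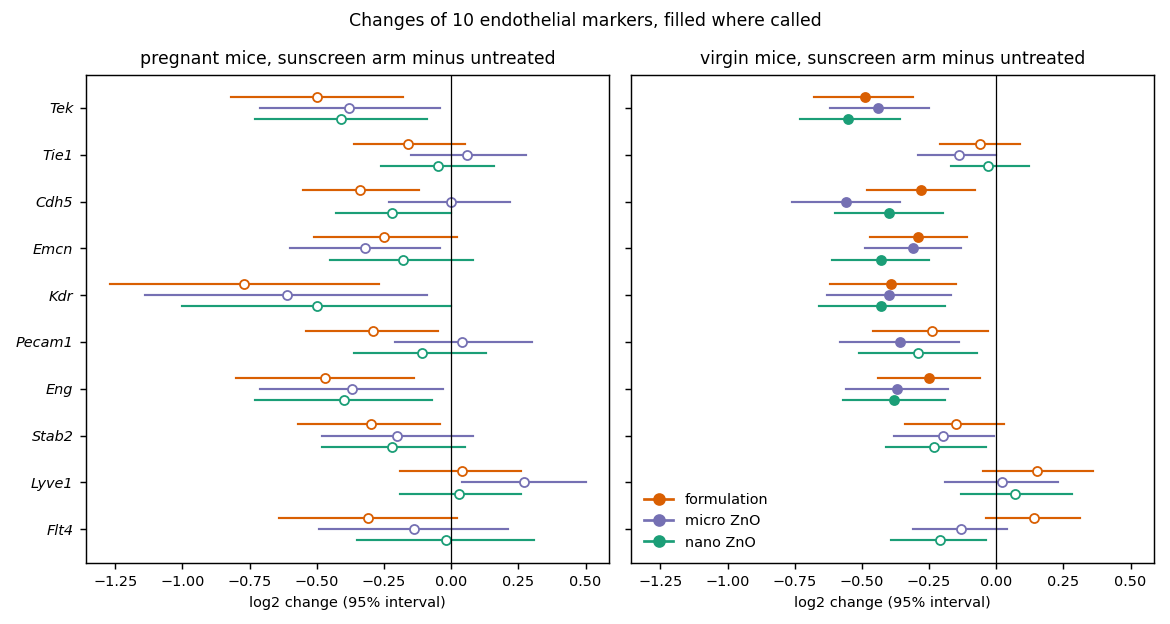
Log2 change of each gene in each sunscreen arm against untreated mice, pregnant on the left and virgin on the right, with 95% intervals. Filled points are called at an adjusted p under 0.05. In pregnant mice 0 points are filled, and in virgin mice 16 are, all below 0.

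Particle arms were set against formulation to separate the particles from the base. In virgin mice 0 of the 10 members were called for micro ZnO minus formulation, beside 6.83% of all probe sets called either way, and 2 had an unadjusted p under 0.05, beside 22.4% of all probe sets. These were Flt4 at -0.27 ± 0.09 (adjusted p = 0.0533) and Cdh5 at -0.28 ± 0.10 (adjusted p = 0.076). For nano ZnO minus formulation 1 member was called lower, Flt4 as given above, beside 0.722% of all probe sets. An unadjusted p under 0.05 was found for 1 member, beside 17.6% of all probe sets. In each of these comparisons 9 of 10 members lay below 0, beside 53.8% of all probe sets for micro ZnO and 51.5% for nano ZnO. The member medians were -0.1 and -0.08. Tek differed by 0.05 between micro ZnO and formulation, with an interval of -0.13 to 0.24, and by -0.05 between nano ZnO and formulation, with an interval of -0.24 to 0.13. For nano ZnO minus micro ZnO, limma called 0 members, beside 0% of all probe sets, and 0 had an unadjusted p under 0.05, beside 4.72%. The widest gap in that comparison was Cdh5 at 0.16, with an interval of -0.04 to 0.36.

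In pregnant mice no endothelial marker was called in any sunscreen arm. The changes lay mostly below 0, in 9 members with formulation, 7 with micro ZnO and 9 with nano ZnO. The median change was -0.31 with formulation, -0.17 with micro ZnO and -0.20 with nano ZnO. Limma called 0 members in each arm, beside 0.0598%, 0.107% and 0.0214% of all probe sets, and the smallest adjusted p among members was 0.255, 0.442 and 0.409. At an unadjusted p under 0.05 there were 6, 5 and 2 members, beside 12.3%, 9.08% and 10.2% of all probe sets. The mean of the 10 genes lay between 4.88 and 5.52 in the 17 pregnant sunscreen arrays and between 5.39 and 5.69 in the 5 untreated ones, and these ranges overlap.

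Kdr had the lowest changes in pregnant mice. With formulation its log2 values ran from 5.77 through 6.20 to 6.61. In untreated pregnant mice they were 7.07, 6.98, 6.99, 6.96 and 6.69. Every formulation array lay below every untreated array, and the change of -0.77 ± 0.24 was not called (adjusted p = 0.263, 95% interval -1.27 to -0.27). In a fit of the formulation and untreated arrays alone Kdr was called. The nano ZnO arrays ran from 5.94 through 6.42 to 6.76, a change of -0.50 ± 0.24 (adjusted p = 0.489), and 4 of 6 lay below all untreated arrays. Tek and Eng with formulation also did not overlap with untreated pregnant mice, at -0.50 ± 0.16 and -0.47 ± 0.16, and were not called (adjusted p = 0.255 and 0.287). The share of all probe sets without overlap between these groups is not given, so the separation only describes the arrays.

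The pregnant micro ZnO arm depended on the arrays that stood apart. Kdr was 6.57, 6.77, 4.98, 6.25 and 7.03 in its 5 arrays, Tek 5.03, 4.91, 4.24, 4.69 and 5.12, and Eng 6.65, 6.51, 5.61, 6.50 and 6.96. Replicate 3 held the lowest value of each of these genes. With all arrays the changes from untreated were -0.61 ± 0.25 for Kdr, -0.38 ± 0.16 for Tek and -0.37 ± 0.17 for Eng (adjusted p = 0.442, 0.475 and 0.496). Without replicates 3 and 4 they were -0.14 ± 0.18, -0.15 ± 0.16 and -0.11 ± 0.13 (adjusted p = 0.999 for each), the median of the 10 genes was -0.07, and 0 members had an unadjusted p under 0.05, beside 4.6% of all probe sets. Lyve1 went the other way in those arrays, at 4.63 and 4.59, against 3.91 to 4.17 in untreated mice, and its change of 0.27 ± 0.11 became 0.06 ± 0.10 without them. Neutrophil marker transcripts were high in this arm and in the other pregnant sunscreen arms. The mean of 12 such genes per array ran from 4.77 to 5.91 with micro ZnO. It ran from 4.41 to 4.83 with formulation and 4.43 to 6.08 with nano ZnO, against 4.04 to 4.33 in untreated pregnant mice. With micro ZnO 3 were called higher, S100a8 by 2.23, S100a9 by 1.94 and Retnlg by 1.32. With nano ZnO these changed by 1.45, 1.3 and 0.94, which were not called (adjusted p = 0.224, 0.224 and 0.135). The mean of 15 Kupffer and macrophage markers ran from 6.34 to 7.08 in the micro ZnO arm, against 6.05 to 6.36 in untreated pregnant mice. Of these 0 were called, with Timd4 at 0.51, Lyz2 at 0.96, Adgre1 at 0.83 and Marco at 1.27 (adjusted p = 0.193, 0.23, 0.364 and 0.408). Clec4f, Vsig4 and Cd163 went the other way, at -0.31, -0.34 and -0.11 (adjusted p = 0.747, 0.789 and 0.957), and the rest of the 15 lay above 0. The part of either cell type in the endothelial values was not tested.

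For the particle arms against formulation in pregnant mice, 0 members were called in either comparison by limma, beside 0% of all probe sets in both, and the median member change was 0.16 for micro ZnO and 0.10 for nano ZnO. At an unadjusted p under 0.05 there were 4 members for micro ZnO minus formulation and 0 for nano ZnO minus formulation, beside 7.0% and 3.07% of all probe sets. Without replicates 3 and 4 all 10 members were above 0 for micro ZnO minus formulation, with a median of 0.27, and 6 had an unadjusted p under 0.05, beside 10.0% of all probe sets, led by Kdr at 0.62 ± 0.18 (adjusted p = 0.424). Nano ZnO minus micro ZnO gave 0 calls, beside 0% of all probe sets, and 1 member at an unadjusted p under 0.05, beside 4.64%. Its median over the members was -0.03, with Kdr at 0.12, Eng at -0.03 and Stab2 at -0.02. Without replicates 3 and 4 the median was -0.14 and 9 of 10 members lay below 0, with Kdr turned to -0.35, Eng at -0.29 and Stab2 at -0.22. That fit also called 0 members (smallest adjusted p = 0.625), and 1 had an unadjusted p under 0.05, beside 7.98% of all probe sets.

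Whether the response differed between pregnant and virgin mice was tested by the interaction. It was called for 0 members with formulation, micro ZnO or nano ZnO, beside 0.145%, 0.0470% and 0.0427% of all probe sets, and 1, 2 and 0 members had an unadjusted p under 0.05, beside 10.2%, 7.43% and 6.26% of all probe sets. The interaction for Cdh5 with micro ZnO was 0.55 ± 0.15 (adjusted p = 0.172), with means of 5.99 in the micro ZnO arm and 5.99 in untreated pregnant mice, and 6.00 and 6.56 in the virgin ones. It was 0.49 ± 0.16 without pregnant micro ZnO replicates 3 and 4 (adjusted p = 0.322). In that fit the interaction with micro ZnO was above 0 in all 10 members, with a median of 0.25, against 0.03 with all arrays, and 0 were called, beside 0.0256% of all probe sets. Flt4 with formulation had the lowest interaction, -0.45 ± 0.18 (adjusted p = 0.372), with a change of -0.31 in pregnant and 0.14 in virgin mice. That markers were called in virgin and not in pregnant mice therefore does not show that the experiments differ. In pregnant mice Tek minus Tie1 differed from untreated by -0.34 with formulation (exact permutation, adjusted p = 0.0297), and Kdr minus Flt4 by -0.46 with formulation and -0.48 with nano ZnO (exact permutation, adjusted p = 0.039 and 0.0462).

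Other endothelial genes were measured in the same arrays. Of 15 measured genes of sinusoidal endothelium outside the 10 members, 6 were called lower with formulation, 5 with micro ZnO and 7 with nano ZnO in virgin mice. The shares of all probe sets called lower were 15.0%, 2.80% and 7.18%. In these arms 0 of the 15 genes were called higher, beside 11.5%, 1.63% and 4.77% of all probe sets. Their medians were -0.29, -0.23 and -0.36. With formulation, micro ZnO and nano ZnO, Aqp1, a water channel gene, changed by -0.46, -0.47 and -0.63 (adjusted p = 0.00133, 0.00593 and 0.000253), and Oit3, a secreted protein gene of sinusoidal cells, by -0.35, -0.51 and -0.37 (adjusted p = 0.00887, 0.00218 and 0.013). Dnase1l3, the gene of a secreted DNase, changed by -0.49, -0.51 and -0.55 (adjusted p = 0.0168, 0.0473 and 0.0175). Clec4g, the gene of the sinusoidal lectin LSECtin, changed by -0.60, -0.45 and -0.59, and its micro ZnO value was not called (adjusted p = 0.00556, 0.0819 and 0.0122).

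Of 25 genes shared by endothelium of most organs, 7 were called lower and 2 higher with formulation, beside 15.0% and 11.5% of all probe sets. With micro ZnO 2 were lower and 0 higher, beside 2.80% and 1.63%. With nano ZnO 2 were lower and 0 higher, beside 7.18% and 4.77%. The medians with formulation, micro ZnO and nano ZnO were 0.03, -0.04 and -0.02. Calcrl, the receptor gene for adrenomedullin and CGRP, changed by -0.49, -0.42 and -0.44 (adjusted p = 0.00056, 0.00862 and 0.00315). Adgrl4, an adhesion GPCR gene, was lower with formulation (-0.48, adjusted p = 0.0101), as was S1pr1, a receptor gene for sphingosine 1-phosphate (-0.46, adjusted p = 0.0175). In the micro ZnO and nano ZnO arms the changes of -0.41 and -0.31 for Adgrl4 and -0.24 and -0.20 for S1pr1 were not called. With formulation Tal1, a transcription factor gene of blood and endothelial development, was higher by 0.30 (adjusted p = 0.00977).

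Of 14 genes of larger vessels, 1 was lower and 3 were higher with formulation, beside 15.0% and 11.5% of all probe sets. With micro ZnO 1 was higher, beside 1.63% of all probe sets. With nano ZnO 0 were called, beside 7.18% of all probe sets called lower and 4.77% higher. The gene lower with formulation was Rspo3, a Wnt agonist gene (-0.27, adjusted p = 0.0189). Those higher with formulation were Thbd, the thrombomodulin gene, by 0.34, Sele, the E-selectin gene, by 0.40, and Lrg1, which hepatocytes also secrete in the acute phase, by 0.53 (adjusted p = 0.00342, 0.0099 and 0.048). Lrg1 was also the gene higher with micro ZnO (0.77, adjusted p = 0.0255). Among 6 lymphatic genes Reln was lower in all 3 arms, at -0.33, -0.48 and -0.31 (adjusted p = 0.00759, 0.00153 and 0.019), a gene that stellate cells also express. Pdpn, the podoplanin gene, was higher with formulation (0.28, adjusted p = 0.0138).

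Markers of the other cells of liver were measured in the same arrays. In virgin mice 15.0% of all probe sets were called lower and 11.5% higher with formulation. These shares were 2.80% and 1.63% with micro ZnO, and 7.18% and 4.77% with nano ZnO. Of 13 hepatocyte markers, 0 were called lower and 1, 0 and 1 higher in the formulation, micro ZnO and nano ZnO arms of virgin mice, the 1 being Tat, a glucocorticoid-responsive enzyme gene. Their mean per array ran from 12.17 to 12.26 with formulation, 12.09 to 12.31 with micro ZnO and 12.16 to 12.31 with nano ZnO, against 12.05 to 12.21 in untreated mice. Of 15 Kupffer and macrophage markers 1, 1 and 2 were lower and 0, 0 and 1 higher, with medians of -0.10, -0.31 and -0.09. Cd68 was lower with micro ZnO (-0.53, adjusted p = 0.00864). With nano ZnO Folr2 and Cd68 were lower (-0.35 and -0.36, adjusted p = 0.0329 and 0.0385) and Fcgr1 was higher (0.30, adjusted p = 0.033). Of 14 stellate markers 2, 3 and 1 were lower and 1, 0 and 0 higher, and the gene higher with formulation was Col1a1 (0.22, adjusted p = 0.0235). Ecm1, Lrat and Rgs5 were lower with micro ZnO (-0.37, -0.41 and -0.32, adjusted p = 0.0106, 0.0171 and 0.0362). Lum was lower with nano ZnO (-0.54, adjusted p = 0.0151). The Kupffer and stellate genes called lower with formulation are not named here. Neutrophil markers were higher in 7 of 12 with formulation, 0 with micro ZnO and 5 with nano ZnO, and their mean per array ran from 4.33 to 5.08, 4.00 to 4.53 and 4.36 to 5.40 in these arms, against 4.08 to 4.21 in untreated mice. The part of these cells in the endothelial values was not tested in any arm. In pregnant mice 0 genes of these lists were called apart from the neutrophil genes named above.

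**Figure D3:**
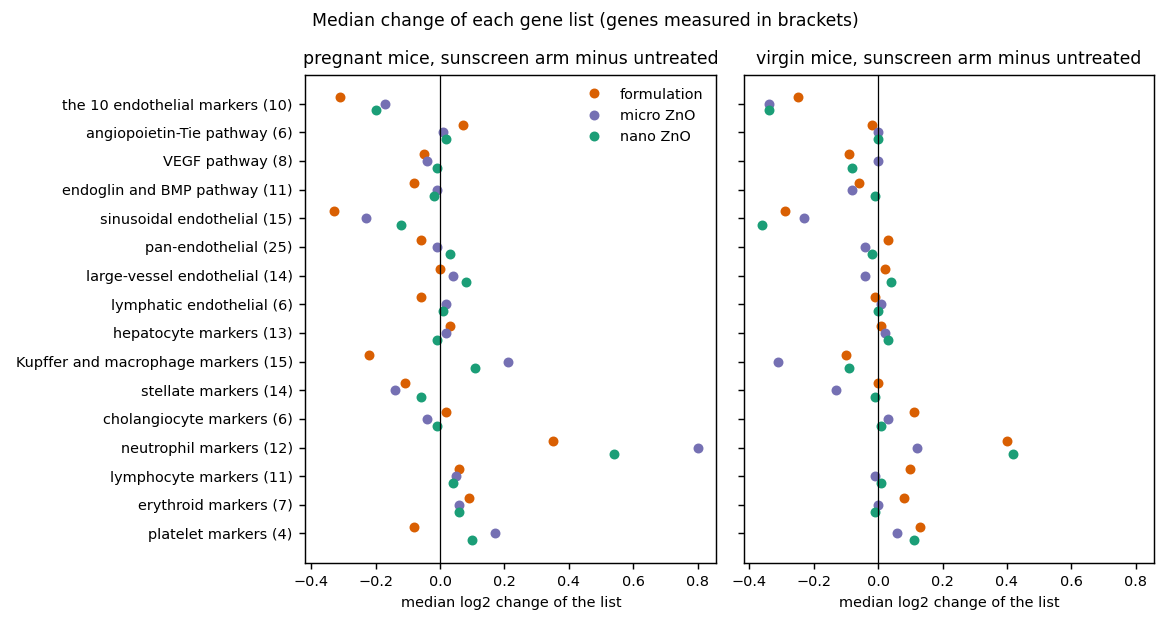
Median log2 change of the genes of each list in each sunscreen arm against untreated mice, pregnant on the left and virgin on the right, with the number of genes measured in brackets. In virgin mice the 10 markers (medians -0.34 to -0.25) and the sinusoidal genes (medians -0.36 to -0.23) lie below 0 in all arms, and neutrophil markers lie above 0. Medians of the Kupffer and macrophage markers also lie below 0 in all virgin arms.

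Across arrays, genes outside the 10 were ranked by their correlation with the mean of the 10, each gene centred within its experiment. The 8 highest over 46 arrays were Dnase1l3 (r = 0.87), Stab1 (0.869), Aqp1 (0.852), Clec4g (0.847), Oit3 (0.842), Ehd3 (0.826), Gpr182 (0.818) and Adgrl4 (0.801). Of these, 7 stood in the sinusoidal list and 1 in the list of general endothelial genes. The arrays share arms and normalization, so these values describe likeness and carry no p. Among the 10 themselves, Eng followed the mean of the other 9 most closely (r = 0.871), then Kdr (0.82) and Tek (0.794), while Tie1 had 0.471 and Lyve1 -0.383.

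With the arm means removed, the 45 pairs of members had correlations from -0.747 to 0.88 in pregnant mice, with a median of 0.433 and 38 above 0. In virgin mice the range was -0.581 to 0.733, the median 0.218, and 28 pairs lay above 0. Of 4 pairs tested in both experiments (8 relations), Kdr and Flt4 varied together, with r = 0.68 and rho = 0.589 in 22 pregnant arrays and r = 0.713 and rho = 0.668 in 24 virgin arrays (permutation, adjusted p = 0.00132 and 0.0128, then 0.0008 and 0.00424). Without the 2 arrays farthest from the Kdr median, r was 0.489 and 0.551. Cdh5 and Pecam1 had r = 0.551 and rho = 0.482 in pregnant mice and r = 0.536 and rho = 0.628 in virgin mice (permutation, adjusted p = 0.0149 and 0.0477, then 0.0149 and 0.00512), and r = 0.547 and 0.443 without the farthest arrays.

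Tek and Tie1 had r = 0.461 and rho = 0.452 in pregnant mice (permutation, adjusted p = 0.0351 and 0.057) and r = 0.0113 and rho = 0.08 in virgin mice (permutation, adjusted p = 0.958 and 0.71). The relation in pregnant mice was weaker, at r = 0.289, without the 2 farthest arrays, and no test was run on that set. Stab2 and Lyve1 ran against each other, with r = -0.485 and rho = -0.427 in pregnant mice and r = -0.581 and rho = -0.389 in virgin mice (permutation, adjusted p = 0.0329 and 0.0655, then 0.0179 and 0.0708). Without the 2 farthest arrays r was weaker, at -0.367 and -0.128, also without a test. Leaving out extreme arrays narrows the range and can by itself weaken r, so how far either relation depends on them is not settled.

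**Figure D4:**
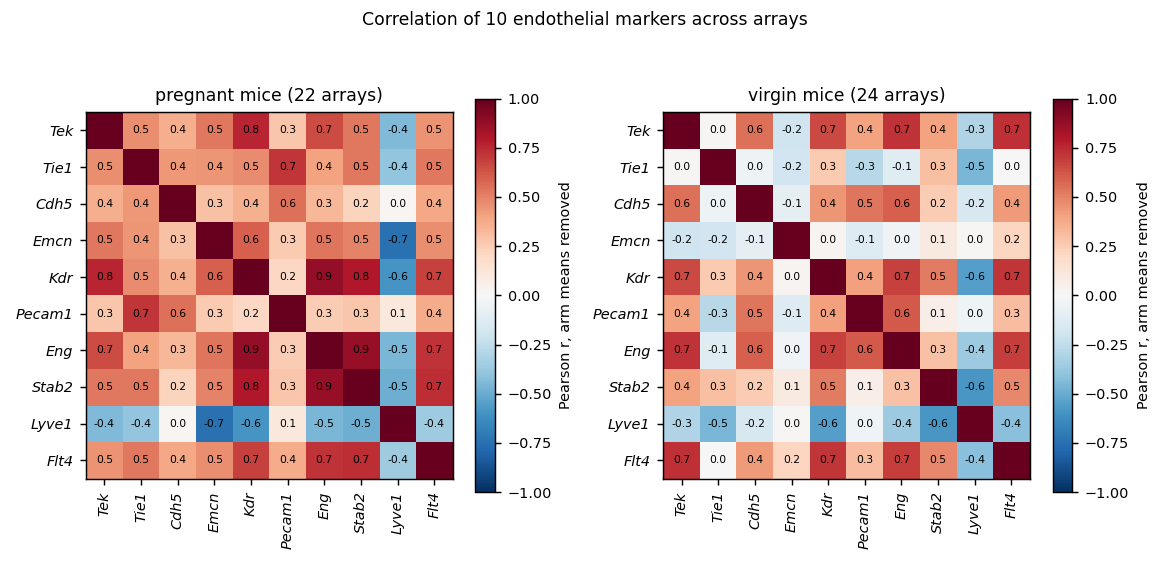
Pearson correlation between each pair of the 10 genes across arrays, after subtraction of each arm's mean, in pregnant mice (22 arrays) and virgin mice (24 arrays). Red is positive and blue negative. Kdr, Eng and Stab2 form the highest values in pregnant mice, with 0.88 for Kdr and Eng, and Lyve1 is mostly negative there.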

How the data were processed

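Total RNA of each liver was labelled by the Affymetrix whole-transcript protocol, per the labels. The authors deposited log2 intensities, processed with RMA according to the submitters' processing notes, with no version named. All 46 columns were used and 0 left out. Medians lay apart between the experiments, which is compatible with separate normalization, not stated in the sources used here. Detection calls and scan dates were not used. Precision is limited by the number of arrays. The platform annotation named the probe sets, and for a gene with several the brightest by mean over 46 arrays was taken.

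Models with 4 arms were fitted to all 23410 probe sets with a symbol, each experiment apart, in R 4.3.3 with limma 3.58.1 (lmFit, eBayes), and a joint model of the 8 groups gave the interactions. Tests were two-sided, with Benjamini-Hochberg adjustment over all 23410 and calls under 0.05. Correlations used 100000 permutations, and within-array differences of gene pairs, a test added after seeing the data, used exact permutation. The procedure was tested on simulated data. Python 3.11.15, scipy 1.17.1 and matplotlib 3.10.9 were used.

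The 10 members, the pathway and cell type lists and the tests were chosen with earlier results of these data known. All members are named. Of each list at most 4 genes are named for a comparison, mostly those with the smallest p in it. For the endothelial lists this was formulation minus untreated in virgin mice. Genes named as not called, or as going against others of their list, come in addition. Alternatives were a filter on dim probe sets, all probe sets, trend and robust moderation, array weights, further quantile normalization, a fit of only the compared groups, a replicate block, array width as a covariate and each array left out. A fit without pregnant micro ZnO replicates 3 and 4 was added after seeing the data.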

Additional observations from a re-analysis of the deposited data

Results flagged for a closer look

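Of 80 groups of values checked (10 genes in 8 groups), 8 held an array far from the others of its group by Dixon's criterion, and chance gives about 1 in 20 groups. Among the pregnant groups, Tek was 4.31 in formulation replicate 6, with the next array at 4.67. Lyve1 was 3.68 in formulation replicate 4, with the next at 4.06. Stab2 was 6.02 in micro ZnO replicate 3, with the next at 6.78, and this array also stood apart on the first principal component. Kdr was 6.69 in untreated replicate 5, with the next at 6.96. Among the virgin groups, Eng was 6.88 in formulation replicate 5, with the next at 7.41. Pecam1 was 6.28 in micro ZnO replicate 4, with the next at 5.68, and Stab2 was 7.44 in micro ZnO replicate 2, with the next at 6.95. Flt4 was 5.50 in micro ZnO replicate 1, with the next at 5.71.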

How the results depend on the processing

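In virgin mice the calls of Tek and Cdh5 with micro ZnO and of Tek and Emcn with nano ZnO held in every alternative in which the gene was tested (Emcn is left out by the filter on dim probe sets). The count of 5 members lower with formulation became 3 over all probe sets, 2 with further quantile normalization, 3 with the replicate number as block and 0 with array width as covariate, and ran from 2 to 6 with 1 array left out. Eng with formulation was also lost with array weights and in a fit of the compared groups alone. With the covariate Cdh5 turned to 0.03. The lowest count with 1 array out, 2, came without formulation replicate 5, and counts of 3 came without formulation replicates 1 and 6 and untreated replicates 1 and 6. The count of 6 with micro ZnO became 3 over all probe sets, 2 with the replicate block and 2 with the covariate. It ran from 2 to 6 with 1 array out, at 2 without untreated replicates 1 and 5 and at 3 without micro ZnO replicates 1, 3 and 6 and untreated replicates 3 and 4. Pecam1 with micro ZnO was also lost with array weights and in a fit of the compared groups alone. Kdr and Pecam1 with micro ZnO were lost with further quantile normalization. With nano ZnO the count of 5 became 2 with the covariate and ran from 5 to 6. In that arm Stab2 was called in addition with array weights, and Pecam1 in a fit of the compared groups alone. For micro ZnO minus formulation the count of 0 became 1 without dim probe sets, 2 with array weights, 1 with further quantile normalization and 1 with the covariate, and ran from 0 to 2, with 2 without formulation replicate 5 and 1 without micro ZnO replicate 2. For nano ZnO minus formulation the count of 1 became 0 in a fit of the compared groups alone and 0 with the replicate block, and ran from 0 to 1. In pregnant mice the count of 0 for formulation minus untreated became 1 (Kdr) in a fit of the compared groups alone. The cause of these shifts was not tested. The shares of all probe sets called under each alternative are not given here. Width and formulation cannot be told apart in the fit with the covariate. Same-numbered arrays correlated at -0.147 to 0.232 in pregnant and -0.351 to 0.198 in virgin mice after removal of group means, so the numbers were not read as pairs. Of 44 changes from untreated that were not called, 38 were called in no alternative and 35 kept their sign in all.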
